A study of Homo sapiens with 4 samples.

Results

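The 10 genes described here encode the G1 cyclins D1, D3, E1 and E2 (CCND1, CCND3, CCNE1, CCNE2) and 6 inhibitors of cyclin-dependent kinases (CDKN1A, CDKN1B, CDKN2A, CDKN2B, CDKN2C, CDKN2D). They were taken by gene symbol from the 20137 genes to which the deposited transcript values were summed. The group was chosen with earlier results of these data known. RNA sequencing was run on MDA-MB-231 cells, a triple-negative breast cancer line, with a knockdown of AURKA (2 libraries, titled shA) and on control cells (2 libraries, titled shC and called mock-transfected in the design text, so that a control hairpin is not certain). AURKA encodes Aurora kinase A, a kinase of the mitotic spindle. All 4 libraries came from this 1 line in serum-containing L-15 medium, and neither the hairpin, a clone nor the time after knockdown is given in the sources used here. Levels are FPKM, a measure of fragments corrected for transcript length and for sequencing depth, and are summed over the transcripts of a gene.

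Passage through G1 is driven by D-type cyclins, which activate CDK4 and CDK6, and then by E-type cyclins, which activate CDK2. Together these kinases phosphorylate the retinoblastoma protein and release E2F transcription factors. Inhibitors of the INK4 family (p16, p15, p18 and p19, from CDKN2A, CDKN2B, CDKN2C and CDKN2D) bind CDK4 and CDK6, whereas those of the CIP/KIP family (p21 from CDKN1A and p27 from CDKN1B) bind cyclin-CDK complexes. MDA-MB-231 is known as a line without CDKN2A.

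In the knockdown AURKA itself had 22.3 and 23.7 FPKM, against 124 and 99.1 FPKM in the control, 4.86-fold lower (limma adjusted p 0.0819 when the run described below was left out of the model and 0.000696 when it was included). The libraries held rough depths of 17500000 to 27700000 fragments, estimated from the value of 1 fragment, and 11738 to 12177 genes reached 1 FPKM. The line's markers were present, with VIM at 1701 to 2068 FPKM and KRT18 at 265 to 346 FPKM. Among markers looked up as low or absent in the line, the oestrogen receptor gene ESR1 stayed at or below 0.271 FPKM. PGR stayed at or below 0.0232 FPKM and CDH1 at or below 0.0463 FPKM, while EPCAM was at 2.49 to 3.30 FPKM. Of 10 markers of blood, endothelial, fibroblast and liver cells in the files, CD3E, HBB and ALB were listed at 0 in each library. The highest were COL1A1, at 1.04 to 3.61 FPKM, and PDGFRB, at 1.37 to 2.77 FPKM, both higher in replicate 1 of either group. DCN and COL1A2, also fibroblast markers, were instead higher in replicate 2 of either group. DCN was at 0 and 0.342 FPKM in the knockdown and 0 and 0.464 FPKM in the control. COL1A2 was at 0 and 0.122 FPKM in the knockdown and 0.0102 and 0.109 FPKM in the control. The part of these markers in the differences below was not tested. The knockdown and control tables of one replicate number list their transcripts in one order, and those of the other number in another, with 1707 transcripts assigned to another locus. The labels do not say what the number marks. It is called the run here because of this order, and no sequencing run or batch is implied. The design text calls the samples biological replicates, so a run also holds separate samples, and the effects of sample and quantification cannot be told apart.

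Promoter windows are printed for CDKN2C, CDKN1A and CCNE1, the 3 genes whose groups did not overlap. Each runs from 250 bases before to 50 after a start, on the plus strand of GRCh38.p14 (RefSeq). Capitals mark GC boxes (GGGCGG on either strand, the word bound by SP1) and E boxes (CACGTG).

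CDKN2C, distal start, chr1:50960495-50960794: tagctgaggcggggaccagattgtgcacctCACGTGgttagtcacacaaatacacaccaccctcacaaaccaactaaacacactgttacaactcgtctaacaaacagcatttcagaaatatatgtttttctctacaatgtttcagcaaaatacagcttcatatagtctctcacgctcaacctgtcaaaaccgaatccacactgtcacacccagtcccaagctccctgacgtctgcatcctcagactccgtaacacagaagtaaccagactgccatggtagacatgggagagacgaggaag

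CDKN2C, middle start, chr1:50968456-50968755: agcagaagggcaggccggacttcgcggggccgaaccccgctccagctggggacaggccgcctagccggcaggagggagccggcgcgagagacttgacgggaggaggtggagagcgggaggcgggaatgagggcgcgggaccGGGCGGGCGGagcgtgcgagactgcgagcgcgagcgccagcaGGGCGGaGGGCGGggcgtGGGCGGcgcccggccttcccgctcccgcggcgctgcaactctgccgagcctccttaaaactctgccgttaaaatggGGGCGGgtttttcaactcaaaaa

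CDKN2C, proximal start, chr1:50969995-50970294: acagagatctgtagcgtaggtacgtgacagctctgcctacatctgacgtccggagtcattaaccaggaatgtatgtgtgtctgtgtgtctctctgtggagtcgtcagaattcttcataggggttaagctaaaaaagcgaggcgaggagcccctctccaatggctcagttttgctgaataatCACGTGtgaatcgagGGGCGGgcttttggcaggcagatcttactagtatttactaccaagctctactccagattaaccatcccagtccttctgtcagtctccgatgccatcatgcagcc

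CDKN1A, chr6:36678464-36678763: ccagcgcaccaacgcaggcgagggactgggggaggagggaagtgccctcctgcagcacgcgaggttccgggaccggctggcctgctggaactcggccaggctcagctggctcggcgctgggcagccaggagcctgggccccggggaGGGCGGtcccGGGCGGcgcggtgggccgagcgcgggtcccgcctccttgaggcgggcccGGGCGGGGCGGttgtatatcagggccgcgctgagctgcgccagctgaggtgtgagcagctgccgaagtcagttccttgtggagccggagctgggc

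CCNE1, chr19:29811741-29812040: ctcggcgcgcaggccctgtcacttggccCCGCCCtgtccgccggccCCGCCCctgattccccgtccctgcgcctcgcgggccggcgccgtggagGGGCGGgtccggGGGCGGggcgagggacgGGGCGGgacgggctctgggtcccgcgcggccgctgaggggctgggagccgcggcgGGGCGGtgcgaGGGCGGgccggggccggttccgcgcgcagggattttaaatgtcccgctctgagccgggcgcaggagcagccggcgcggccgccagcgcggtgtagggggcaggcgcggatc

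The CDKN2C middle window held 6 GC boxes and the proximal window held 1 GC box and 1 E box, while the distal window held an E box and no GC box. The CDKN1A window held 4 GC boxes, the last pair of which share a base, and the CCNE1 window held 7. Of 35116 RefSeq windows of this length, 45.0% held a GC box and 7.26% an E box. The E2F word TTTNGCGC, present on either strand in 1.79% of the windows, was in none of the 13 windows of the 8 genes that matched the promoter table, which says nothing about E2F binding there. CCND1 and CCNE2 are named only.

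Levels per length placed CCND1 far above the rest. Its 4 libraries lay between 68.2 and 91.6 FPKM and did not overlap with those of any other gene of the group. CDKN2C (24.8 to 33.1 FPKM), CDKN2D (17.95 to 40.7 FPKM) and CCND3 (24.8 to 26.2 FPKM) followed, and their ranges overlapped. CDKN1B came next at 15.7 to 21.2 FPKM, below the range of CCND3. CDKN1A (8.33 to 16.4 FPKM), CCNE2 (5.28 to 13.0 FPKM) and CCNE1 (3.95 to 6.68 FPKM) were lowest, each overlapping its neighbour in this order. CDKN2A and CDKN2B were listed at 0 in all 4 libraries.

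**Figure D1:**
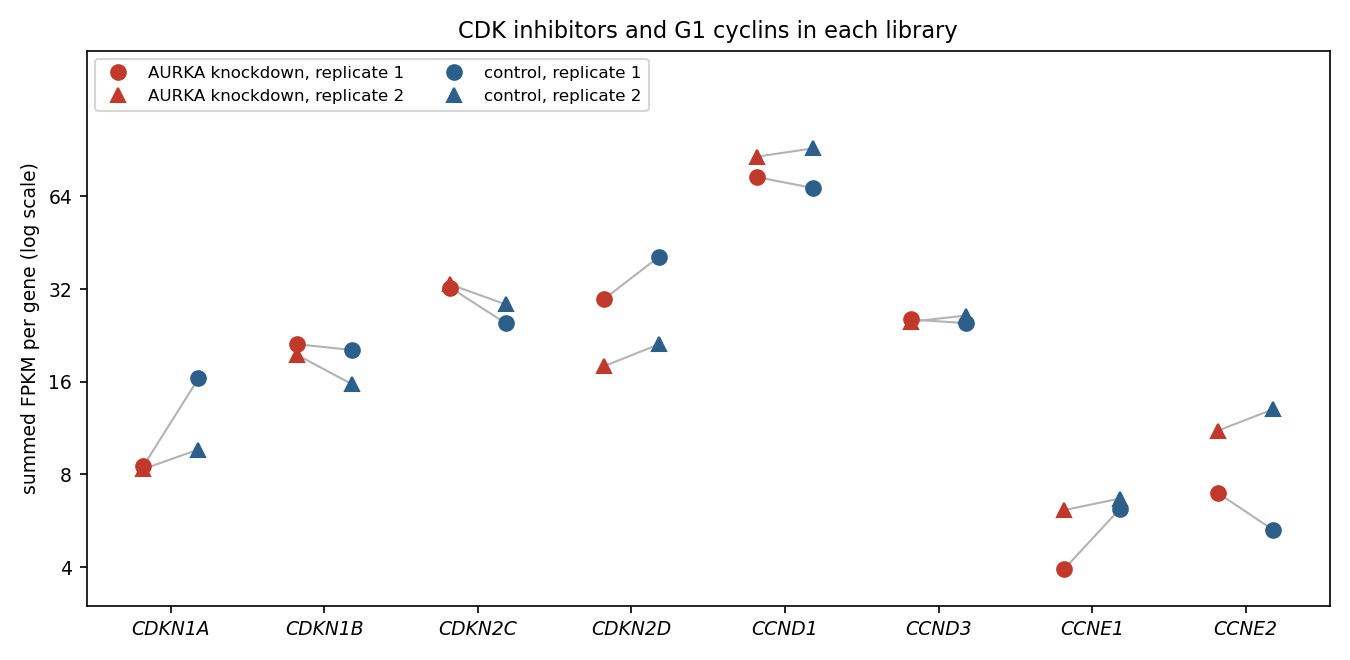
Summed FPKM (log scale) of the 8 genes with a value, 1 point per library, knockdown left of control, with a line joining the libraries of 1 replicate number. The knockdown libraries agree on CDKN1A at 8.50 and 8.33 FPKM while the controls lie at 16.4 and 9.64 FPKM, and CDKN2D and CCNE2 are set apart by replicate number more than by knockdown.

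The knockdown was compared with the control by limma on log2(FPKM + 1) over all 12136 genes that reached 1 FPKM in 2 or more libraries, calling a Benjamini-Hochberg adjusted p under 0.05. Of the 10 genes, 8 passed this filter, and CDKN2A and CDKN2B did not. Without the run in the model 0 of the 8 were called, against 0% of all tested genes, and at an unadjusted p under 0.05 they were 0 of 8, against 6.37% of all tested genes. With the run as a term again 0 of the 8 were called (smallest adjusted p 0.111), against 3.44% of all tested genes, and 3 of 8 had an unadjusted p under 0.05 (CDKN1A, CDKN2C and CDKN2D), against 22.1% of all tested genes. The 2 groups did not overlap for 3 of the 8 genes, against 35.9% of all tested genes. The difference had the same sign in both runs for 5 of the 8, against 67.0% of all tested genes. The group's median log2 difference was 0.00017, beside 0.012 over all tested genes. In bulk RNA, fewer cells of a kind and less RNA per cell cannot be told apart, here and below.

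**Figure D2:**
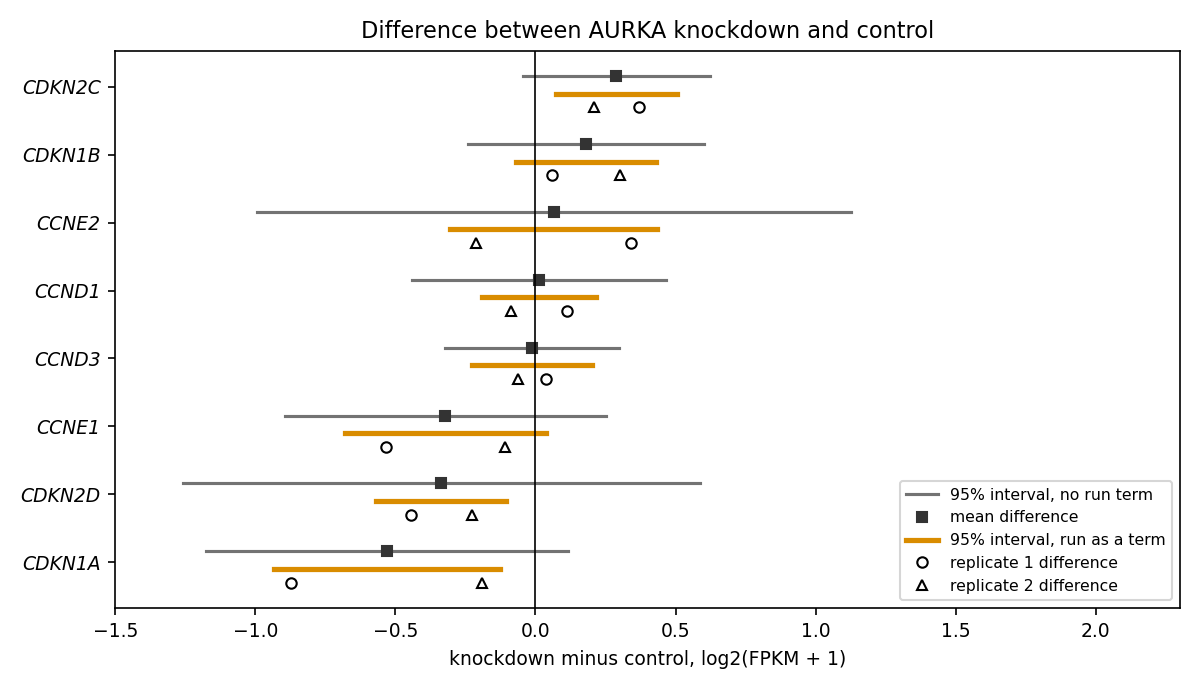
Difference between knockdown and control in log2(FPKM + 1) for each tested gene, with 95% intervals from limma without the run (grey) and with it (orange) and the difference within each replicate number (open symbols). The grey interval spans 0 for all 8 genes, and the orange one lies off 0 for CDKN2C, CDKN2D and CDKN1A, of which 0 passed the adjusted threshold.

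Among the CIP/KIP inhibitors, CDKN1A had the largest difference of the group. This inhibitor, p21, binds and blocks cyclin-CDK2 complexes (ENSG00000124762, chromosome 6, 36645588 to 36655116, GRCh37). It was at 8.50 and 8.33 FPKM in the knockdown, against 16.4 and 9.64 FPKM in the control. Both knockdown values lay below both controls, and control replicate 1 was the library that stood off. The ratio of means was 1.55-fold lower in the knockdown, at a log2 difference of -0.53 (standard error 0.26, 95% interval -1.18 to 0.11, limma adjusted p 0.809). The difference was -0.87 in run 1 and -0.19 in run 2, with an adjusted p of 0.139 with the run modelled. Without control replicate 1 it was -0.18. The transcript CDKN1A-201 held 86.6% and 91.3% of the value in the knockdown and 88.5% and 96.6% in the control. CDKN1A-203 held the rest, and the other 2 of the 4 transcripts were listed at 0.

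CDKN1B, p27, an inhibitor whose level is set largely by ubiquitin-dependent degradation (ENSG00000111276, chromosome 12, 12870058 to 12875305), was at 21.2 and 19.6 FPKM in the knockdown and 20.3 and 15.7 FPKM in the control. The groups overlapped, since knockdown replicate 2 lay below control replicate 1. Its log2 difference was 0.18 (95% interval -0.24 to 0.60, limma adjusted p 0.913, and 0.361 with the run modelled). It was 0.0052 without control replicate 2 and 0.35 without control replicate 1. Nearly the whole value came from CDKN1B-201, at 96.2% to 99.2% of the sum in the 4 libraries. CDKN1A made up 28.6% and 29.8% of the summed level of CDKN1A and CDKN1B in the knockdown and 44.7% and 38.0% in the control, so the share of p21 transcript was lower in both knockdown libraries than in both controls. No test was made of this share.

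Of the INK4 inhibitors with a value, CDKN2C was higher and CDKN2D lower in the knockdown within both runs, though neither passed. CDKN2C, p18 (ENSG00000123080, chromosome 1, 51426417 to 51440305), was at 32.3 and 33.1 FPKM in the knockdown, against 24.8 and 28.5 FPKM in the control. The 2 groups did not overlap, and the knockdown pair agreed closely (32.7 ± 0.545 against 26.7 ± 2.65 FPKM, SD, n = 2 each). The ratio was 1.23-fold and the log2 difference 0.29 (standard error 0.13, 95% interval -0.04 to 0.62), at 0.37 in run 1 and 0.21 in run 2. In limma the adjusted p of CDKN2C was 0.797, or 0.136 once the run was modelled. Leaving out any 1 library kept the log2 difference of CDKN2C between 0.19 and 0.39.

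The CDKN2C value was split between a pair of transcripts with separate starts. CDKN2C-203, whose GENCODE 29 start lies 11 bases from the middle RefSeq start printed above, had 17.5 and 18.1 FPKM in the knockdown and 12.0 and 15.9 FPKM in the control. CDKN2C-202 starts 301 bases from the proximal RefSeq start, and had 14.2 and 14.7 FPKM in the knockdown and 12.0 and 12.2 FPKM in the control. Both transcripts were higher in both knockdown libraries than in both controls, and CDKN2C-203 held 54.0% and 54.6% of the sum in the knockdown and 48.3% and 55.8% in the control. CDKN2C-201, at the distal start, held at most 3.36%. The share of fragments given to each transcript is an estimate with no error in the files.

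CDKN2D, p19 of the INK4 family (ENSG00000129355, chromosome 19, 10677138 to 10679735), was at 29.6 and 17.95 FPKM in the knockdown and 40.7 and 21.2 FPKM in the control. The groups overlapped, because run 1 was above run 2 in either group, 1.65-fold in the knockdown and 1.92-fold in the control. Within runs the log2 difference was -0.45 and -0.23, with a mean of -0.34 (95% interval -1.26 to 0.59, limma adjusted p 0.922, and 0.111 with the run modelled). Without control replicate 1 the difference was 0.12, and without knockdown replicate 2 it was 0.010. These fits leave the run out of the model, and dropping a library unbalances the runs; with the run modelled the 95% interval over all 4 libraries was -0.57 to -0.10. The split between transcripts was similar in all libraries, with CDKN2D-201 at 65.4% and 63.0% in the knockdown and 67.7% and 63.2% in the control and CDKN2D-202 holding the rest. CDKN2C was 52.2% and 64.8% of the summed CDKN2C and CDKN2D level in the knockdown and 37.8% and 57.4% in the control. Within each run this share was higher in the knockdown, and the groups overlapped.

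**Figure D3:**
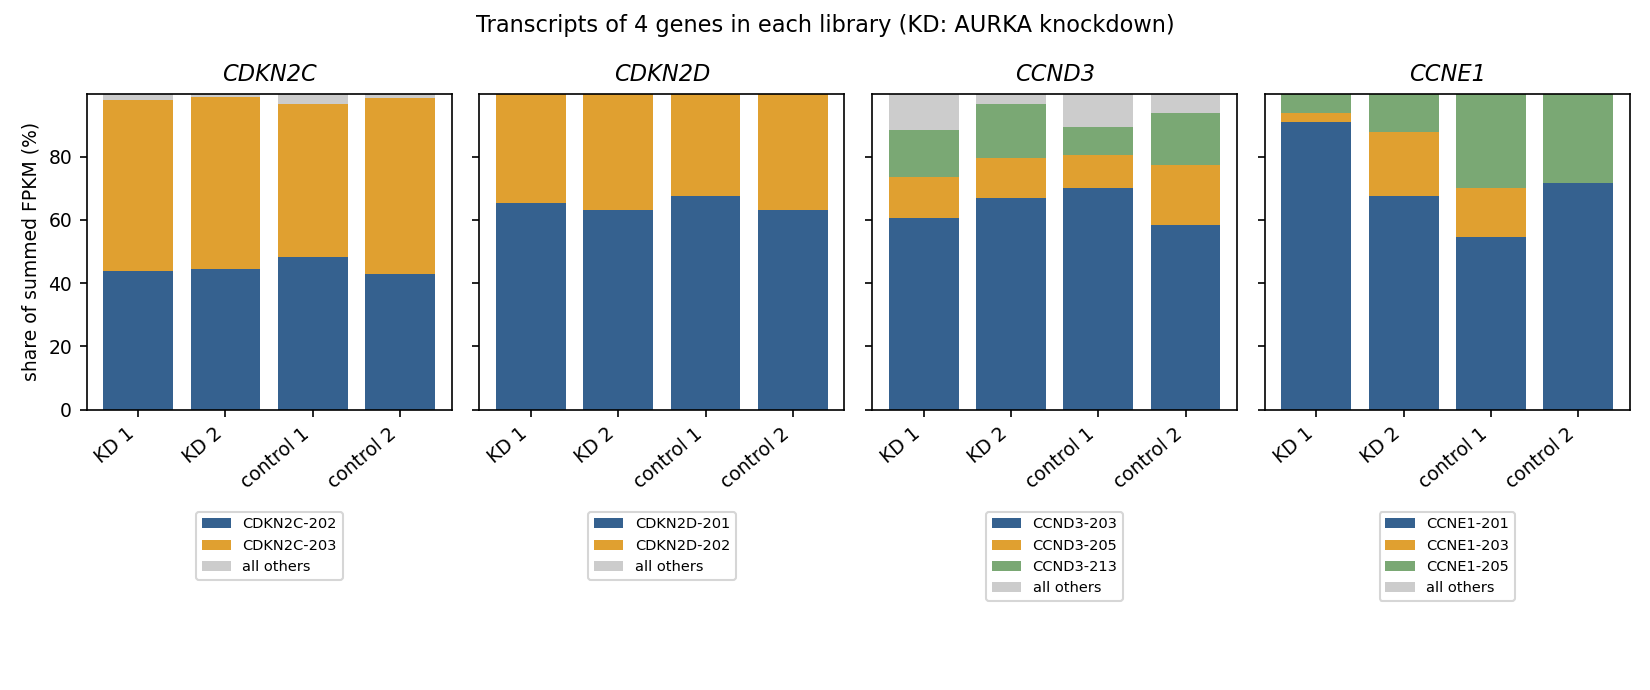
Share (%) of each gene's summed FPKM held by transcripts that reach 10% in any library, with all others in grey, for the knockdown (KD) and control libraries. CDKN2C and CDKN2D keep a similar split, and the CCNE1-205 share is 6.15% and 12.3% in the knockdown against 29.8% and 28.3% in the control. CCNE1-205 lies at or below 1.89 FPKM, and these shares are estimates with no error given.

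CDKN2A and CDKN2B lie side by side on chromosome 9 and were listed at 0 in every library. CDKN2A (ENSG00000147889, chromosome 9, 21967751 to 21995300), which encodes p16 and, from an alternative first exon, the MDM2 antagonist ARF, was listed at 0 for all 12 of its transcripts. These include CDKN2A-201, the p16 form, and CDKN2A-214, the ARF form. CDKN2B, p15 (ENSG00000147883, chromosome 9, 22002902 to 22009362), was at 0 for all 3 of its transcripts. Of 10 housekeeping genes looked up for comparison, 0 were at 0 in any library, and the lowest value was 15.1 FPKM.

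Neighbouring genes were also listed at or near 0. Between FOCAD, whose locus ends at 21031635 and which was at 2.06 and 2.17 FPKM in the knockdown and 2.37 and 2.02 FPKM in the control, and TUSC1, which starts at 25676396 and was at 3.40 and 2.95 FPKM in the knockdown and 2.83 and 2.78 FPKM in the control, the files list 24 genes. Of these, 16 are interferon genes, which are silent in most cells. In that stretch 16 of the 24 genes were at 0 in all libraries, and the highest single value was 0.157 FPKM. MTAP, the methionine salvage enzyme that most cells express and that is often lost together with CDKN2A, was listed at 0 in 3 libraries and at 0.0508 FPKM in knockdown replicate 2. KLHL9, an adaptor of a ubiquitin ligase, was at 0 and 0.0549 FPKM in the knockdown and 0 and 0.0483 FPKM in the control, and DMRTA1 was at 0 throughout. CAAP1, on the far side of TUSC1, was at 29.2 and 28.1 FPKM in the knockdown and 29.5 and 29.7 FPKM in the control. DNA was not measured, so these files do not show whether the genes are deleted.

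**Figure D4:**
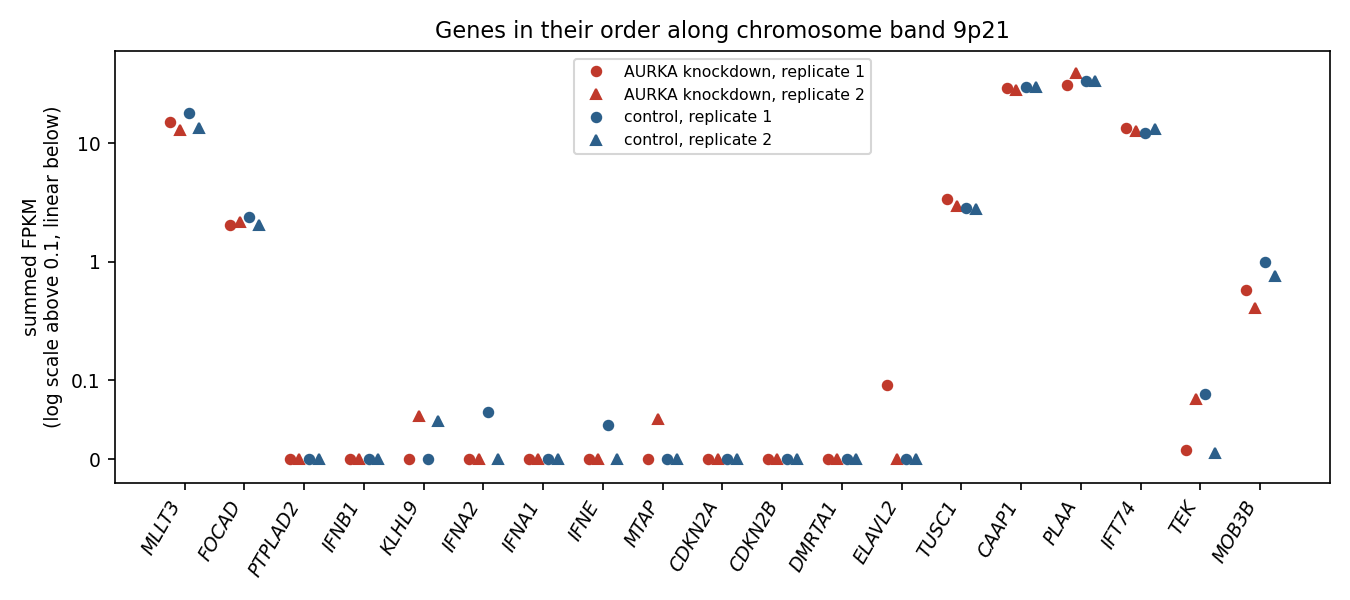
Summed FPKM of genes around CDKN2A and CDKN2B in their order along the chromosome, each library a point; the axis is logarithmic above 0.1 and linear below. Values are above 1 FPKM at MLLT3 and FOCAD on one side and from TUSC1 to IFT74 on the other, and at most 0.0938 FPKM for the plotted genes between FOCAD and TUSC1.

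The D-type cyclins showed small differences with opposite signs in the 2 runs. CCND1, the partner of CDK4 and CDK6 that mitogens induce through RAS and ERK signalling (ENSG00000110092, chromosome 11, 69455855 to 69490184, a locus the files join with ORAOV1), was at 73.8 and 86.1 FPKM in the knockdown and 68.2 and 91.6 FPKM in the control. Both knockdown values lay between the controls, so the groups overlapped. The log2 difference was 0.013 (95% interval -0.44 to 0.47 in limma without the run, and -0.19 to 0.22 with it), which turned to -0.0071 under median-of-ratios scaling. CCND1-201 held 99.3% to 99.7% of the value in the 4 libraries.

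CCND3, cyclin D3 (ENSG00000112576, chromosome 6, 41902671 to 42018095), was the steadiest gene of the group, at 25.5 and 25.1 FPKM in the knockdown and 24.8 and 26.2 FPKM in the control. Its log2 difference was -0.013, with a 95% interval of -0.32 to 0.30 without the run and -0.23 to 0.20 with it. CCND3-203 was the main transcript, at 60.5% and 67.1% of the value in the knockdown and 70.1% and 58.3% in the control. CCND3-205 held 13.1% and 12.4% in the knockdown and 10.3% and 19.2% in the control, and CCND3-213 held 14.8% and 17.2% in the knockdown and 9.10% and 16.2% in the control. CCND1 made up 74.3% and 77.5% of the summed CCND1 and CCND3 level in the knockdown and 73.3% and 77.7% in the control, higher in run 2 of either group. CCND2, the remaining D-type cyclin, was at 0 and 1.21 FPKM in the knockdown and 0.0084 and 1.46 FPKM in the control, present in run 2 and nearly absent in run 1.

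Neither of the E-type cyclins was called in either fit, and they were not tested against each other. CCNE1 (ENSG00000105173, chromosome 19, 30302805 to 30315215), which activates CDK2 at the G1/S transition, was at 3.95 and 6.13 FPKM in the knockdown, against 6.18 and 6.68 FPKM in the control. The knockdown values lay below both controls, with knockdown replicate 1 the lowest and knockdown replicate 2 only just below control replicate 1. The ratio was 1.28-fold lower, with a log2 difference of -0.32 (95% interval -0.89 to 0.25, limma adjusted p 0.866, and 0.269 with the run modelled). It was -0.54 in run 1 and -0.11 in run 2, and -0.058 without knockdown replicate 1.

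The CCNE1 value was spread over transcripts that differed in direction. CCNE1-205, of 820 bases, had 0.243 and 0.754 FPKM in the knockdown and 1.84 and 1.89 FPKM in the control, with no overlap. How many transcripts of all genes do not overlap was not counted. CCNE1-201, the 2043-base transcript that holds most of the value, had 3.59 and 4.15 FPKM in the knockdown and 3.37 and 4.79 FPKM in the control, which overlap. CCNE1-203, of 1680 bases, had 0.117 and 1.23 FPKM in the knockdown and 0.973 and 7.88e-05 FPKM in the control, lower in the knockdown in run 1 and higher in run 2. The CCNE1-205 and CCNE1-203 values are low, and the share of fragments given to each transcript is an estimate with no error given. Since FPKM divides by length, a fragment of a short transcript weighs more in the sum. With each transcript weighted by its length the CCNE1 log2 difference was -0.18 (adjusted p 0.925 without the run and 0.513 with it), an alternative chosen after the values were seen.

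CCNE2, cyclin E2 (ENSG00000175305, chromosome 8, 95825539 to 96088396, a locus the files join with other genes, among them INTS8 and NDUFAF6), was at 6.96 and 11.1 FPKM in the knockdown and 5.28 and 13.0 FPKM in the control. Run 2 was above run 1 by 1.60-fold in the knockdown and 2.47-fold in the control, and the groups overlapped. The log2 difference was 0.34 in run 1 and -0.21 in run 2, with a mean of 0.065 (95% interval -0.996 to 1.13). CCNE2-201 carried this run difference, at 4.71 and 9.84 FPKM in the knockdown and 3.92 and 11.9 FPKM in the control. CCNE2-205 went the other way, at 1.67 and 1.07 FPKM in the knockdown and 1.37 and 0.849 FPKM in the control, higher in run 1 of either group. CCNE2 made up 63.8% and 64.4% of the summed CCNE1 and CCNE2 level in the knockdown and 46.1% and 66.1% in the control, the lowest share being that of control replicate 1.

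The difference between replicate numbers was larger than that between knockdown and control for 5 of the 8 genes, and for 58.9% of all tested genes. It was largest for CCNE2 (replicate 2 minus replicate 1 of 0.88 on the log2 scale, averaged over the groups) and CDKN2D (-0.80). CDKN1A was at -0.37, with a replicate difference of -0.026 in the knockdown and -0.71 in the control. CDKN2C was 1 of 3 genes whose knockdown difference exceeded the replicate difference in size, at 0.29 and 0.11. The others were CDKN1A, at -0.53 and -0.37, and CCNE1, nearly tied at -0.321 and 0.312.

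The genes with profiles nearest to that of CDKN1A over the 4 libraries were KIAA0513 (Euclidean distance 0.031 between centred log2 profiles), DOT1L (0.071) and MCL1 (0.091), against a median distance of 0.765 over 12136 genes. MCL1, an anti-apoptotic BCL2 relative, was at 122 and 115 FPKM in the knockdown and 221 and 143 FPKM in the control. For CDKN2D they were NLRP1 (0.063), TCP11L2 (0.067) and TPRA1 (0.080), against a median of 0.871. With 4 libraries many genes share a shape, and these are given as a description.

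The surrounding network was read from lists of the kinases, their regulators and transcription factors. Of 60 such genes tested, 0 were called without the run, and 7 had an unadjusted p under 0.05, against 6.37% of all tested genes. With the run as a term 1 rose and 5 fell, against 3.44% of all tested genes called. The lists were chosen with earlier results of these data known, so these counts cannot show an excess in the network. The median log2 difference of the 60 was -0.043, beside 0.012 over all tested genes.

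Of the 7 catalytic partners, 0 passed in either fit. CDK4, the kinase bound by cyclin D and by INK4 proteins, was at 167 and 193 FPKM in the knockdown and 152 and 226 FPKM in the control, and its locus is joined with others. MNAT1, a subunit of the CDK-activating kinase, was at 104 and 95.002 FPKM in the knockdown and 125 and 113 FPKM in the control, and CCNH, its cyclin, at 41.2 and 34.8 FPKM against 46.8 and 42.9 FPKM. The groups did not overlap for these 2 of the 7 partners, against 35.9% of all tested genes. Of the 3 relatives of the cyclins and inhibitors, 0 passed. CDKN3, a phosphatase that acts on CDKs, was at 136 and 138 FPKM in the knockdown and 166 and 202 FPKM in the control (log2 -0.42, limma adjusted p 0.662, and 0.0592 with the run modelled). CDKN1C, p57, was at 7.33 and 4.85 FPKM in the knockdown and 11.4 and 4.98 FPKM in the control.

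Among 10 pocket proteins, E2F factors and their DP partners, E2F1 was the 1 gene called with the run modelled. It was at 10.7 and 10.7 FPKM in the knockdown, against 18.7 and 21.7 FPKM in the control (log2 -0.85, limma adjusted p 0.388, and 0.0142 with the run modelled). The most abundant others were TFDP1 (48.6 and 65.2 FPKM in the knockdown, 45.2 and 66.5 FPKM in the control), TFDP2 (36.7 and 43.5 FPKM against 48.3 and 52.4 FPKM) and E2F4 (39.2 and 40.6 FPKM against 41.0 and 45.3 FPKM). TFDP1 and TFDP2, the DP partners of the E2F factors, and E2F4 did not pass. The groups did not overlap for 4 of the 10 genes, against 35.9% of all tested genes. Of these, E2F1, TFDP2 and E2F4 were lower in the knockdown. E2F5 was higher, at 8.26 and 8.07 FPKM against 6.46 and 6.44 FPKM in the control. The pocket proteins RB1 (26.7 and 31.7 FPKM in the knockdown, 23.6 and 30.5 FPKM in the control) and RBL1 did not pass, with overlapping groups.

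Of 15 genes acting on the turnover of cyclins and inhibitors, 0 rose, while CKS1B and RNF144B fell in the model that includes the run. CKS1B, the cofactor with which SKP2 marks p27 for degradation, was at 161 and 178 FPKM in the knockdown, against 234 and 233 FPKM in the control (log2 -0.46, limma adjusted p 0.537, and 0.0355 with the run modelled). SKP1, the adaptor of SKP2 in that ligase, was at 415 and 473 FPKM in the knockdown and 412 and 517 FPKM in the control, at a locus joined with others. The scaffolds CUL3 (52.8 and 60.4 FPKM against 61.5 and 65.2 FPKM) and CUL1 (36.8 and 42.0 FPKM against 30.3 and 39.7 FPKM) did not pass either. SKP2 itself was at 16.4 and 23.6 FPKM in the knockdown and 20.3 and 31.9 FPKM in the control, lower within each run (log2 -0.29 and -0.42) without passing (limma adjusted p 0.0927 once the run was modelled, chosen after its values were seen). RNF144B, a ubiquitin ligase, was at 1.40 and 1.35 FPKM in the knockdown, against 3.57 and 3.65 FPKM in the control (log2 -0.96, adjusted p 0.444 and 0.0304).

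Of 25 transcription factors known to act on these genes, KLF2 rose and FOSL1 and EGR1 fell with the run modelled. KLF2, a factor that can induce CDKN1A, was at 67.2 and 35.6 FPKM in the knockdown, against 27.1 and 22.3 FPKM in the control (log2 0.97, limma adjusted p 0.637, and 0.0252 with the run modelled). EGR1, an immediate early factor, was at 21.5 and 11.1 FPKM in the knockdown and 36.4 and 19.6 FPKM in the control, where the groups overlapped and each run showed a similar difference (log2 -0.73 and -0.77). FOSL1 was at 127 and 130 FPKM in the knockdown, against 207 and 216 FPKM in the control. FOSL1, an AP-1 subunit that can bind the CCND1 promoter, differed by -0.70 and -0.73 on the log2 scale in runs 1 and 2 (limma adjusted p 0.315, and 0.00902 with the run modelled). CTNNB1 (137 and 138 FPKM in the knockdown, 120 and 135 FPKM in the control) and KLF6 (70.7 and 71.9 FPKM against 65.6 and 53.5 FPKM) did not pass. SMAD3, which relays TGF-beta signals to CDKN1A, was at 138 and 104 FPKM in the knockdown and 219 and 105 FPKM in the control. Control replicate 1 was the highest, and a relation to the CDKN1A values was not tested.

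**Figure D5:**
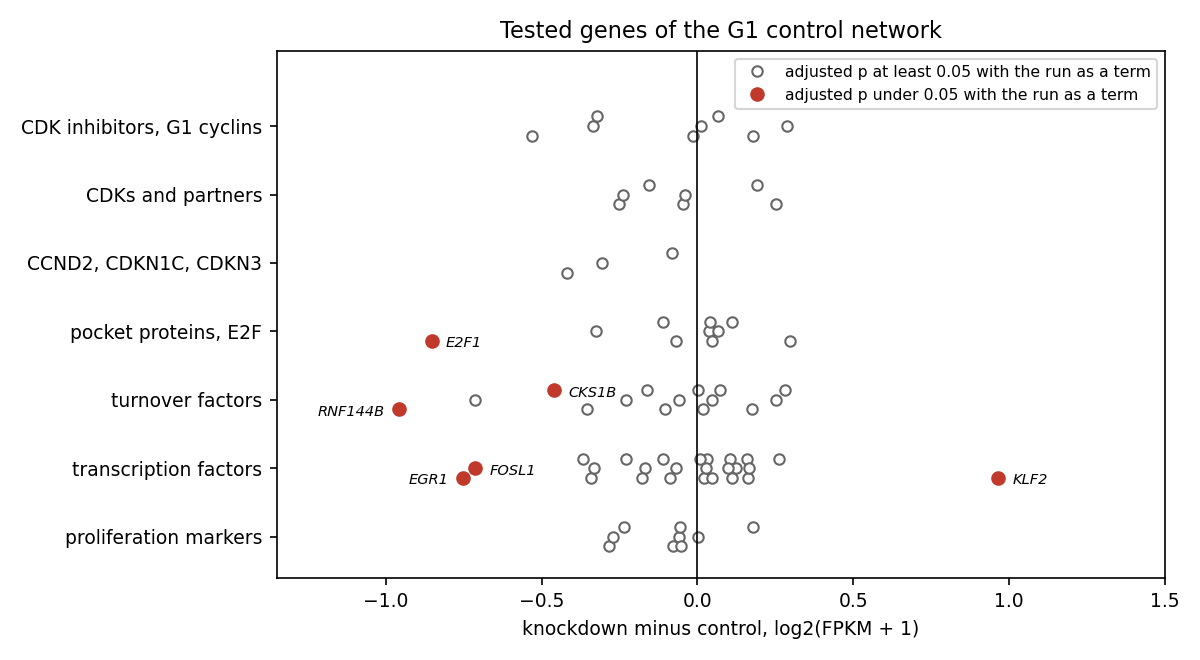
Difference between knockdown and control in log2(FPKM + 1) for each tested gene, by list; filled points had an adjusted p under 0.05 with the run modelled. KLF2 lies at 0.97, RNF144B, E2F1, EGR1, FOSL1 and CKS1B lie between -0.96 and -0.46, and all 8 CDK inhibitors and G1 cyclins are open points between -0.53 and 0.29.

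Of 9 proliferation markers, 0 were called in either fit, and their median log2 difference was -0.060. TOP2A was at 204 and 232 FPKM in the knockdown and 238 and 216 FPKM in the control, and CCNB1 at 138 and 160 FPKM against 151 and 159 FPKM. MKI67 was at 92.8 and 106 FPKM in the knockdown and 103 and 106 FPKM in the control, and PCNA at 120 and 128 FPKM against 104 and 147 FPKM. CDK1 was at 91.8 and 103 FPKM in the knockdown and 121 and 116 FPKM in the control (limma adjusted p 0.781, and 0.130 with the run modelled). It was among the 2 of 9 markers whose groups did not overlap, against 35.9% of all tested genes.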

How the data were processed

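RNA was sequenced from 2 AURKA knockdown and 2 control libraries of MDA-MB-231 cells. The authors deposited a table per library of 81493 transcripts, whose unit the header does not give; the deposited values were read as FPKM, since they are not whole and low ones step by a size set by the gene. Per the submitters' processing notes, hg38, HTSeq 0.8.0 and bcl2fastq 2.19 were used, but the coordinates are GRCh37 (a chromosome 4 locus ends at 191013719), and starts counted from 0 were raised by 1. Which program made the values is not stated in these sources.

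Values of the 81412 transcripts in all 4 tables were summed by gene ID. Tests used limma 3.58.1 (R 4.3.3) with an intensity trend on log2(FPKM + 1), since there are no counts. They were two-sided over the 12136 genes that passed the filter. A trial on simulated data gave every gene the same noise level and both groups the same run effect. It therefore cannot show how the tests perform on these libraries. The main fit has no replicate term, and the fit with the replicate number (the run) as a term stands beside it. Same-numbered libraries deviated together (r = 0.645 across 12136 genes, which are not independent). An exact permutation test of 2 against 2 cannot go below p = 0.333, so none was run. Depths are rough, and the precision of low values such as CCNE1 is limited by them. The design text calls the samples biological replicates without saying whether cultures were separate, so p-values measure only the spread between these samples.

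GENCODE 29 gave transcript names and lengths (91.1% of transcripts matched) and start sites, and RefSeq the promoters, both on GRCh38. All 10 genes are named, with AURKA, the list genes called in either fit, the most abundant others, and the 3 nearest profiles of the 2 tested genes with the largest differences; transcripts are named where they reach 10% of a gene's value in any library. Others singled out were chosen after their values were seen. Some list genes are not reported here. The genes and lists were chosen with earlier results of these data known.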

Additional observations from a re-analysis of the deposited data

How the results depend on the processing

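Without the replicate block, the number of all tested genes called was 0 with a pseudocount of 0.1, with no filter on low values and with length-weighted transcripts, 1 with a filter of 5 FPKM, 3 with median-of-ratios and 2 with upper-quartile scaling, and 6 to 14 with 1 library left out. With the replicate block it was 417 of 12136 genes, rising to 896 of 12140 with median-of-ratios scaling and 716 of 11881 with length-weighted transcripts. Length weighting was chosen after seeing the data. Among the 60 list genes the block called 6, and with those changes 8 and 7, against 0 without it. Of the 8 tested cyclins and inhibitors 1, CDKN1A, was called under any alternative run. This was with median-of-ratios scaling and the block, where 896 of 12140 tested genes were called. The CDKN1A log2 difference there was -0.55, with a limma adjusted p of 0.0466. Under its other alternatives with all 4 libraries the limma adjusted p was 0.116 to 0.861. Of 104 values of these 8 genes under alternatives, 94 kept their direction and side of the threshold and 9 changed sign. The direction could not change with the replicate block alone or with another filter, since these leave the log2 difference as it is. CCND1 was at -0.0071 with median-of-ratios scaling, with and without the block, and between -0.20 and 0.22 with 1 library left out. In the same way CCND3 ran from -0.052 to 0.027, CCNE2 from -0.51 to 0.64 and CDKN2D from -0.79 to 0.12. CDKN2D was at 0.12 without control replicate 1 and 0.010 without knockdown replicate 2. The fits with 1 library left out have no replicate block, and dropping a library unbalances the replicate numbers. Replicate 2 minus replicate 1 was 0.88 for CCNE2 and -0.80 for CDKN2D on the log2 scale. The cause of the sign changes was not tested. CDKN1B ran from 0.0052 to 0.35. Depth limits the precision of low values, such as those of CCNE1.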
